A study of Mus musculus with 14 samples.

Results

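Transcripts of 8 genes that set how T cells answer G protein-coupled receptors were followed in 14 bulk RNA libraries of sorted mouse CD4+ T cells. Of these genes, 6 encode regulators of G protein signalling (Rgs1, Rgs2, Rgs3, Rgs10, Rgs16 and Rgs19) and 2 encode receptor activity-modifying proteins (Ramp1 and Ramp3). They were taken by symbol from the 25017 gene entries of the count table, all 8 were present, and all 8 passed the filter on low counts that left 13780 genes for testing. The recipients were BALB/c mice given T cell-depleted bone marrow of B6 (C57BL/6) donors. Chronic graft-versus-host disease (cGVHD) groups also received B6 splenocytes, whereas the GVHD-free group did not, so the disease and the added source of donor T cells cannot be told apart. On day 30, donor CD4+ T cells were sorted by PSGL1, the P-selectin ligand encoded by Selplg, into low (PSGL1lo) and high (PSGL1hi) fractions. The 7 groups of 2 libraries are GVHD-free spleen PSGL1lo, and the PSGL1lo and PSGL1hi fractions of cGVHD spleen, liver and lung. The labels give no recipient age and do not say whether libraries came from separate or pooled mice, so each p-value measures the spread between these libraries, which may be technical.

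When a ligand binds its receptor, the G protein alpha subunit takes up GTP and separates from beta-gamma. RGS proteins bind the active alpha subunit through the RGS domain and speed GTP hydrolysis, which ends the signal. In lymphocytes they limit, among others, the response of Gi-coupled chemokine receptors that steer migration and retention in tissues. RAMP proteins have a single membrane span and pair with the calcitonin receptor-like receptor, encoded by Calcrl. With RAMP1 this receptor binds the neuropeptide CGRP, and with RAMP2 or RAMP3 it mainly binds adrenomedullin; its signal runs largely through Gs and cyclic AMP.

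The promoters of 4 of the genes are shown because within the lung, as described below, each pair split between the sorted fractions: Rgs16 was higher in PSGL1lo and Rgs2 in PSGL1hi cells, and Ramp1 was higher in PSGL1lo and Ramp3 in PSGL1hi cells. The Ramp3 call was lost when single libraries were left out and under another scaling, as given below. Each sequence is the 250 bases before an annotated transcription start, 5′ to 3′ on the gene's strand, from RefSeq on GRCm38.p6, whereas the counts were made on mm9. The windows are chr1:144004150-144004399 on the minus strand for Rgs2, chr1:153740103-153740352 on the plus strand for Rgs16, chr1:91179572-91179821 on the plus strand for Ramp1 and chr11:6658283-6658532 on the plus strand for Ramp3. Capitals mark a half-site of the cyclic AMP response element, TGACG, on either strand.
Rgs2: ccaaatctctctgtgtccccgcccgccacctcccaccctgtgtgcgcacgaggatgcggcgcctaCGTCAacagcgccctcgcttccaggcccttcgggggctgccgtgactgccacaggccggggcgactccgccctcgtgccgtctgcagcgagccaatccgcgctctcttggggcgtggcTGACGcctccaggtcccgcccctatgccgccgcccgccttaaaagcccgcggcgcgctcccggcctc
Rgs16: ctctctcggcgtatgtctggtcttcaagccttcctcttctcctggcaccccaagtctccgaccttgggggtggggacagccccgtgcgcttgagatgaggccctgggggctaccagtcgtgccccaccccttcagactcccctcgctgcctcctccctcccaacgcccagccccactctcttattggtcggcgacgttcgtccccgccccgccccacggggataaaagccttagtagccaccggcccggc
Ramp1: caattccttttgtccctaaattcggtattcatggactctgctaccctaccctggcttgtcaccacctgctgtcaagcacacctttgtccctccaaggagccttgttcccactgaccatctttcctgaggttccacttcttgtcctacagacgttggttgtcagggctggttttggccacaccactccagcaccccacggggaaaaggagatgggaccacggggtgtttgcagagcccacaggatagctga
Ramp3: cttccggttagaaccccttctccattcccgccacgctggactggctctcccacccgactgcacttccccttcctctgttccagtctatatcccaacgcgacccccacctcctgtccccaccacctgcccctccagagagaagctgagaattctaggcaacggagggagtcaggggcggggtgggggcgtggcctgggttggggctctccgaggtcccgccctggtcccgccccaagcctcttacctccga
Rgs2 alone among these 4 upstream windows held the half-site, in both orientations, with first bases at positions -185 and -67 from the start. RefSeq gave 10 windows of 300 bases, from 250 before to 50 after a start, for 7 of the 8 genes; Rgs1 was not among them. The half-site was chosen after the sequences had been seen. It lay in 2 of the 10 windows, those of Rgs2 and of Ramp1, where it followed the start, and in 20.8% of 32851 mouse windows of the same length. The full cyclic AMP response element (TGACGTCA), an AP-1 site (TGANTCA), an NF-kappaB site and a STAT site (TTCNNNGAA) were searched on both strands and had no match in the 10 windows. They occurred in 1.79%, 7.81%, 0.411% and 8.3% of all windows. A match is a description of these letters only, and a missing match says nothing about the factor.

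Library totals ran from 13222005 to 33532595 counts, and the 3 counts that a count of 0 allows equal 0.0859 to 0.223 CPM, the read count scaled to a common library size with TMM factors, which is the unit of all levels below. Cd4 averaged 1530 to 2630 CPM in the 7 groups, and Selplg was lower in PSGL1lo than in PSGL1hi cells in each tissue, as in the lung (420 ± 52 against 960 ± 49 CPM). The lung libraries stood apart in signs of other cells and of cell stress. Summed over 18 myeloid markers, they held 1010 to 1710 CPM, led by Lyz2 with 799 ± 230 CPM in the PSGL1lo fraction and 630 ± 100 CPM in the other, against 81.1 to 636 CPM in the spleen and liver libraries. Summed over 22 immediate early and stress genes, lung PSGL1lo libraries held 12800 to 14800 CPM and lung PSGL1hi libraries 17000 to 17500 CPM, against 5680 to 7760 CPM in the others. CD8 markers (Cd8a and Cd8b1 summed) were higher in PSGL1hi than in PSGL1lo libraries, at 77.5 to 77.6 against 11.8 to 12.3 CPM in spleen, 141 to 142 against 28 to 31.5 CPM in liver and 28.5 to 30.6 against 12.1 to 12.4 CPM in lung. The part of these signs in the results below was not tested. In bulk samples, fewer cells that express a gene and less RNA per cell cannot be told apart.

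Rgs1, which dampens chemokine receptor signalling in T and B cells, ranked highest in lung PSGL1hi cells. Its levels in the 2 libraries of each group were 329 and 330 CPM in GVHD-free spleen, 726 and 775 in PSGL1lo cells of cGVHD spleen, 655 and 821 in spleen PSGL1hi, 368 and 445 in liver PSGL1lo, 504 and 448 in liver PSGL1hi, 776 and 826 in lung PSGL1lo, and 1680 and 1550 CPM in lung PSGL1hi. Both lung PSGL1hi libraries lay above all others, the GVHD-free libraries below all others, and the spleen fractions overlapped. In the order of group means, lung PSGL1lo did not differ from spleen PSGL1lo, nor spleen PSGL1lo from spleen PSGL1hi, nor the 2 liver fractions from each other, whereas lung PSGL1hi exceeded lung PSGL1lo and liver PSGL1lo exceeded GVHD-free spleen (0.30 ± 0.10 on the log2 scale, adjusted p = 0.0096), a pair of groups in which 64.6% of all genes were called.

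Rgs2, a small RGS protein that acts mainly on Gq and also curbs cyclic AMP production, had the lung fractions on top. The libraries held 264 and 254 CPM in GVHD-free spleen, 275 and 284 in PSGL1lo cells of cGVHD spleen, 211 and 244 in spleen PSGL1hi, 126 and 141 in liver PSGL1lo, 205 and 189 in liver PSGL1hi, 568 and 570 in lung PSGL1lo, and 1080 and 972 CPM in lung PSGL1hi. No lung library overlapped a spleen or liver library, and liver PSGL1lo was the lowest group. GVHD-free spleen PSGL1lo did not differ from either of its neighbours in the order, which were cGVHD spleen PSGL1lo above it (a log2 difference of 0.11 ± 0.08, adjusted p = 0.35) and spleen PSGL1hi below it (0.19 ± 0.08, adjusted p = 0.057).

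Rgs16, an RGS protein induced in activated T cells that acts on Gi and Gq, was also highest in the lung but with the fractions in the other order. Its libraries held 107 and 101 CPM in GVHD-free spleen, 95.9 and 92.3 in PSGL1lo cells of cGVHD spleen, 131 and 117 in spleen PSGL1hi, 211 and 213 in liver PSGL1lo, 193 and 195 in liver PSGL1hi, 568 and 450 in lung PSGL1lo, and 353 and 299 CPM in lung PSGL1hi. The tissues did not overlap, from spleen up to liver and lung. Between tissues within 1 fraction, the libraries did not overlap for 64.8% to 81.6% of all genes tested. Spleen libraries carry another series of library numbers than the rest, so for the step from spleen the tissue and the series cannot be told apart. The liver fractions did not differ from each other, nor did the PSGL1lo groups of GVHD-free and cGVHD spleen.

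Rgs10, a short RGS protein of lymphocytes and microglia, and Rgs3, which exists in several isoforms, followed other patterns. Rgs10 was highest in GVHD-free spleen PSGL1lo cells (166 and 165 CPM), next in lung PSGL1lo (137 and 139) and PSGL1hi (138 and 132), then in liver PSGL1lo (89.5 and 79.0), cGVHD spleen PSGL1lo (80.2 and 69.9) and liver PSGL1hi (64.7 and 63.6), and lowest in spleen PSGL1hi (46.1 and 49.6 CPM). The lung fractions overlapped and did not differ, and neither did liver and cGVHD spleen PSGL1lo cells (log2 difference 0.17 ± 0.08, adjusted p = 0.086), although the latter pair passed without spleen PSGL1lo replicate 1 (0.29, adjusted p = 0.022) or liver PSGL1lo replicate 2 (0.25, adjusted p = 0.017). Rgs3 was highest in the liver, with 283 and 268 CPM in PSGL1lo cells and 249 and 246 CPM in the PSGL1hi fraction. It was 189 and 195 CPM in GVHD-free spleen, 194 and 198 in PSGL1lo cells of cGVHD spleen, 178 and 177 in spleen PSGL1hi, 165 and 168 in lung PSGL1lo and 166 and 155 CPM in lung PSGL1hi. Below the liver, no group of the order differed from the next for Rgs3. RefSeq lists a long noncoding RNA, Gm52741, overlapping Rgs3, so its counts are uncertain where strand was not used.

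Rgs19, which acts on Gi and binds the adaptor GIPC, split the libraries into a lower spleen set and a higher liver and lung set. The 6 spleen libraries ran from 38.7 to 46.3 CPM and the 8 liver and lung libraries from 63.5 to 80.0 CPM. Within the spleen set and within the liver and lung set, no group differed from the next. Groups further apart within a set were not all alike, since more pairs were called (13 of 21) than cross between the sets. In the labels, spleen libraries carry another series of library numbers than liver and lung libraries. For this split, as for every liver or lung level set against spleen, the tissue cannot be told apart from the series.

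Ramp1, the CGRP partner, was highest in GVHD-free spleen PSGL1lo cells and among cGVHD groups in lung PSGL1lo cells. The libraries held 75.9 and 75.4 CPM in GVHD-free spleen, 22.7 and 19.3 in PSGL1lo cells of cGVHD spleen, 10.2 and 11.3 in spleen PSGL1hi, 21.9 and 20.9 in liver PSGL1lo, 11.6 and 12.3 in liver PSGL1hi, 41.1 and 34.6 in lung PSGL1lo, and 11.5 and 8.89 CPM in lung PSGL1hi. Every PSGL1lo library lay above every PSGL1hi library, and no PSGL1hi group of the 3 tissues differed from the next. Ramp3, the adrenomedullin partner, was highest in the lung. It was 6.52 and 5.80 CPM in GVHD-free spleen, 13.3 and 11.1 in PSGL1lo cells of cGVHD spleen, 7.35 and 6.48 in spleen PSGL1hi, 11.4 and 10.4 in liver PSGL1lo, 5.44 and 4.10 in liver PSGL1hi, 60.3 and 47.3 in lung PSGL1lo, and 79.4 and 66.1 CPM in lung PSGL1hi. All 4 lung libraries exceeded all 10 others. RefSeq places a transcribed pseudogene, Gm11978, over Ramp3, and without strand the counts of both cannot be told apart.

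Over the 21 pairs of groups, 20.8% to 67.5% of all genes were called in either direction, with a median over the pairs of 57.9%. Against that background the genes that parted fewest pairs were Rgs19 (13 of 21) and Rgs3 (14), and those that parted most were Rgs2, Rgs10 and Rgs16 (19 each).

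**Figure D1:**
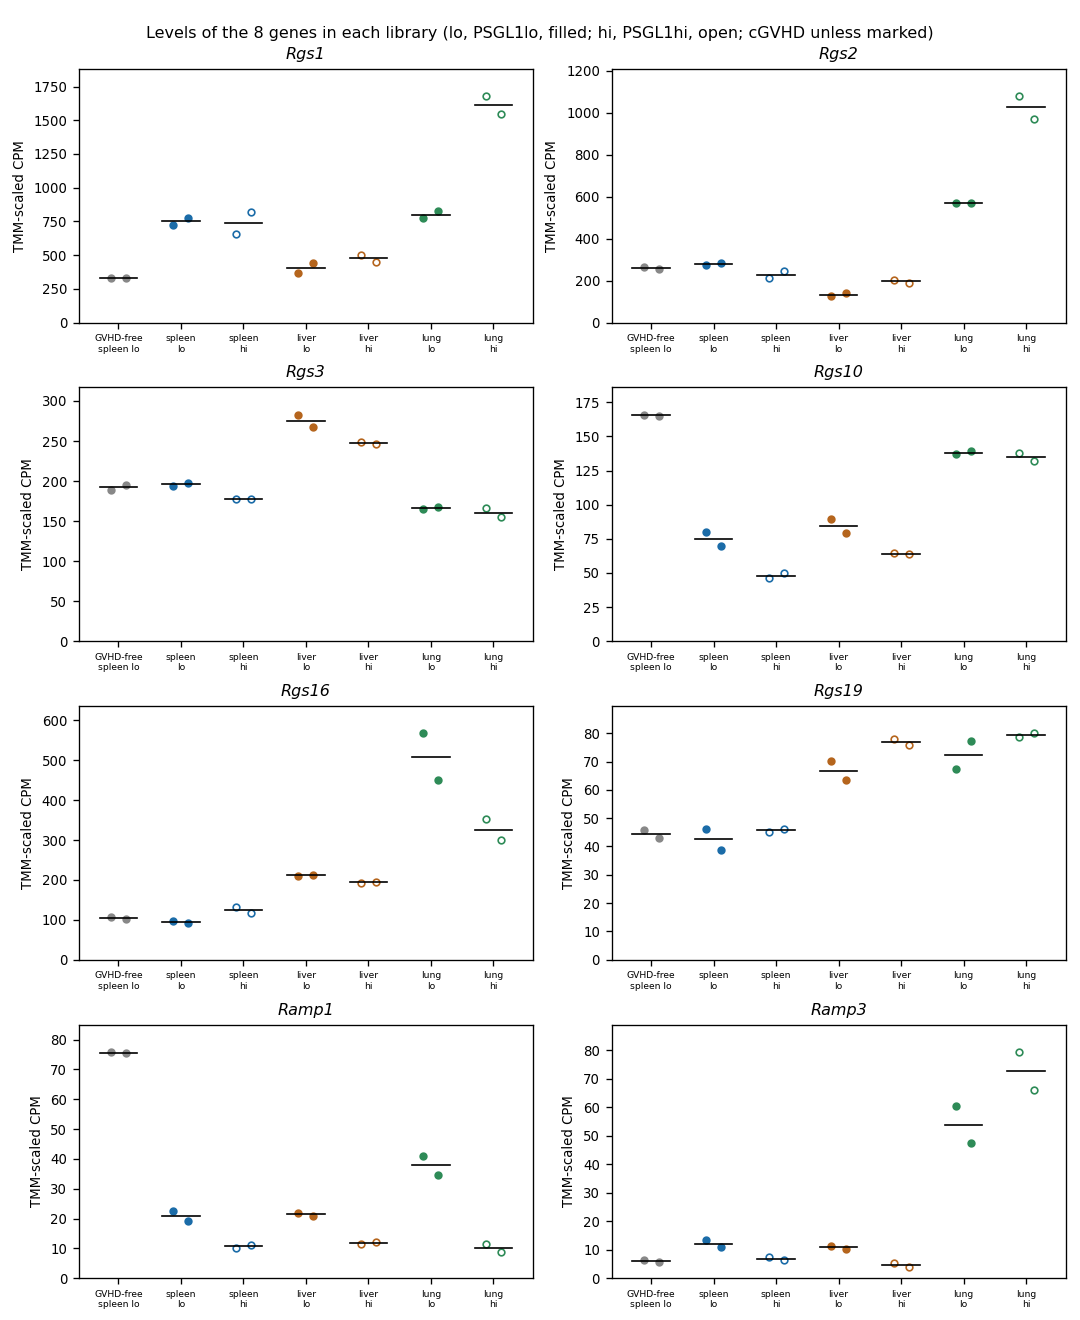
Level of each gene (TMM-scaled CPM, linear axis from 0) in each library, by group; points are libraries, filled for PSGL1lo and open for PSGL1hi, and lines are means of 2. The lung libraries are the highest for Rgs2, Rgs16 and Ramp3, and the GVHD-free spleen libraries are the highest for Rgs10 and Ramp1.

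The first comparison set PSGL1lo against PSGL1hi cells within each cGVHD tissue, the PSGL1lo fraction being the one that the series title calls tissue-resident. Ramp1 was higher in PSGL1lo cells in all 3 tissues, while Rgs2, Rgs16 and Ramp3 changed direction between tissues. The spleen calls of Rgs2 and Rgs16 and the lung call of Ramp3 were lost under alternatives given below. Rgs3 and Rgs19 passed the test in no tissue, except for Rgs3 under the alternatives given with the spleen and liver values. In spleen, 4 of the 8 genes were higher and 1 was lower in PSGL1lo cells, against 15.8% higher and 16.7% lower (32.5% called in all) of the 13780 genes. In liver, 3 were higher and 1 lower, against 8.5% and 12.3% (20.8% in all). In lung, 2 were higher and 3 lower, against 12.9% and 20.1% (33% in all). The median log2 change of the 8 genes was 0.22, 0.14 and -0.05 in spleen, liver and lung, and that of all genes 0, -0.02 and -0.03.

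In spleen PSGL1lo cells, Ramp1 was 1.95 times its PSGL1hi level (log2 change 0.96 ± 0.14, adjusted p = 1.3e-05) and Ramp3 was 1.76 times (0.81 ± 0.17, adjusted p = 0.00087). Rgs10 rose 1.57-fold (0.65 ± 0.09, adjusted p = 4.8e-06). For these 3 genes the libraries of both fractions did not overlap, which held for 66% of all genes tested. Rgs2 was 1.23 times higher (0.30 ± 0.08, adjusted p = 0.0065) and Rgs16 was lower (-0.40 ± 0.10, adjusted p = 0.0034). Both calls were lost when single libraries were left out, Rgs2 without PSGL1lo replicate 2 (0.26, adjusted p = 0.065) or PSGL1hi replicate 1 (0.20, adjusted p = 0.11), and Rgs16 without PSGL1hi replicate 1 (-0.31, adjusted p = 0.052). Rgs1 was alike in level, 751 ± 35 and 738 ± 120 CPM (0.02 ± 0.10, adjusted p = 0.88). Rgs3 was 196 ± 3.1 and 178 ± 0.92 CPM (0.14 ± 0.07, adjusted p = 0.12), and it passed with upper quartile scaling (0.18, adjusted p = 0.043). Markers of other cells differed between the same spleen fractions. Of 18 myeloid markers 8 were lower in PSGL1lo cells and 10 did not pass, with summed levels of 327 to 339 against 628 to 636 CPM. The sum over NK cell markers was 71.1 to 71.2 against 132 to 138 CPM, most of it Eomes (68.1 ± 0.24 against 129 ± 3.6 CPM). Klrb1c was 2.88 ± 0.18 against 6.01 ± 0.43 CPM. Ncr1, Klra8 and Klra4 were too low to be tested, so this sum mainly follows Eomes. Jchain, a plasma cell gene, was 4.22 ± 1.4 against 44.9 ± 5.9 CPM. Cd22, the other top marker of B and plasma cells, went the other way, at 14.2 ± 2.1 against 3.94 ± 1.2 CPM. The part of these markers was not tested.

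In liver PSGL1lo cells, the RAMP genes rose again, Ramp3 2.31-fold (1.20 ± 0.17, adjusted p = 1.7e-05) and Ramp1 1.79-fold (0.84 ± 0.13, adjusted p = 4.6e-05). Rgs10 was 1.31 times higher (0.39 ± 0.08, adjusted p = 0.0012). Rgs2 was lower, at 133 ± 11 against 197 ± 11 CPM (-0.56 ± 0.08, adjusted p = 2.1e-05), the opposite of its direction in spleen. Rgs1 was 406 ± 54 and 476 ± 40 CPM (-0.23 ± 0.10, adjusted p = 0.097), and it passed the test without PSGL1lo replicate 2 (-0.38, adjusted p = 0.0078) and when genes with low counts were kept (adjusted p = 0.0087). Rgs3 was 276 ± 11 and 247 ± 2 CPM (0.16 ± 0.07, adjusted p = 0.10), and it passed by DESeq2 (0.17, adjusted p = 0.039) and with upper quartile scaling (0.22, adjusted p = 0.021). Rgs19 was 66.8 ± 4.7 and 76.8 ± 1.6 CPM (-0.20 ± 0.09, adjusted p = 0.13). Hepatocyte RNA differed between the same liver fractions. Summed over 10 markers it was 58.5 to 65.9 CPM in PSGL1lo and 28.4 to 32.8 CPM in PSGL1hi libraries. Alb was 35.3 ± 4.9 against 14.7 ± 2.2 CPM, and no hepatocyte marker was called lower in PSGL1lo cells. The part of this RNA was not tested.

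In the lung, PSGL1lo cells held 37.8 ± 4.6 CPM of Ramp1 against 10.2 ± 1.9 CPM in PSGL1hi cells, 3.71 times as much (1.89 ± 0.13, adjusted p = 2.3e-10). Rgs16 was higher as well, 509 ± 84 against 326 ± 38 CPM (0.64 ± 0.09, adjusted p = 1.3e-05). Rgs1 fell to 801 ± 35 from 1620 ± 87 CPM in PSGL1hi cells (-1.01 ± 0.10, adjusted p = 3.4e-08) and Rgs2 to 569 ± 1.8 from 1020 ± 75 CPM (-0.85 ± 0.08, adjusted p = 2.3e-08). The libraries of these 4 genes did not overlap between the fractions, which held for 66.7% of all genes tested. Ramp3 was lower in lung PSGL1lo cells, 53.8 ± 9.2 against 72.7 ± 9.4 CPM (-0.43 ± 0.13, adjusted p = 0.011). That call was lost without PSGL1lo replicate 2 (-0.22, adjusted p = 0.31), without PSGL1hi replicate 1 (-0.30, adjusted p = 0.18) and with upper quartile scaling (-0.33, adjusted p = 0.051), which moved the median of all genes in this comparison from -0.03 to 0.07. Beside the lower Rgs1, Rgs2 and Ramp3, 14 of 22 immediate early and stress genes were lower in lung PSGL1lo cells and 1 was higher (20.1% and 12.9% of all genes), and of 18 myeloid markers 2 were higher and 16 did not pass.

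**Figure D2:**
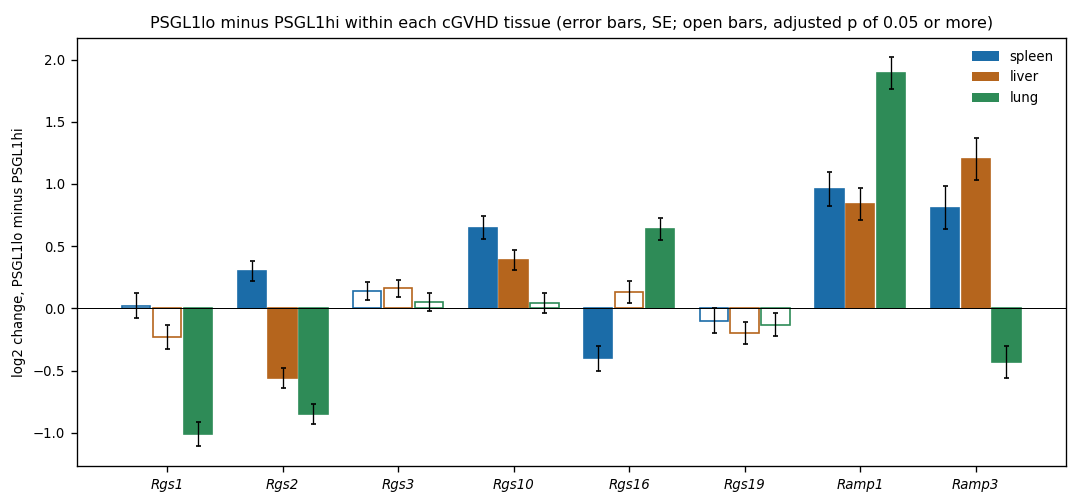
Log2 change between PSGL1lo and PSGL1hi cells for each gene in cGVHD spleen, liver and lung; bars above 0 are higher in PSGL1lo cells, error bars are SE, and open bars did not pass an adjusted p of 0.05. Ramp1 points up in each tissue (0.96, 0.84 and 1.89), and Rgs2 points up in spleen (0.30) and down in liver (-0.56) and lung (-0.85).

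Whether the PSGL1lo effect itself differed between tissues was tested as an interaction. Where lung or liver is set against spleen, the tissue and the series of libraries cannot be told apart. Lung against spleen gave 6 of 8 genes, 2 with a more positive and 4 with a more negative PSGL1lo effect in the lung, against 5.51% and 11.1% of all genes (16.6% in all). Rgs16 (1.04 ± 0.14, adjusted p = 1.5e-05) and Ramp1 (0.93 ± 0.19, adjusted p = 0.0014) were the 2 more positive ones. Rgs1 (-1.04 ± 0.13, adjusted p = 1.4e-05), Rgs2 (-1.14 ± 0.11, adjusted p = 4.7e-07), Rgs10 (-0.61 ± 0.12, adjusted p = 0.00086) and Ramp3 (-1.25 ± 0.21, adjusted p = 3e-04) were the 4 more negative ones. For Rgs10 this stands for a difference between fractions in spleen and nearly the same levels in both lung fractions (138 ± 1.4 and 135 ± 4 CPM).

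Lung against liver gave 2 genes with a more positive effect, Ramp1 (1.05 ± 0.18, adjusted p = 7e-04) and Rgs16 (0.51 ± 0.13, adjusted p = 0.021), and 2 with a more negative effect, Rgs1 (-0.78 ± 0.13, adjusted p = 0.00072) and Ramp3 (-1.64 ± 0.21, adjusted p = 3.2e-05), against 2.08% and 3.89% of all genes (5.97% in all). Liver against spleen gave Rgs16 as more positive (0.53 ± 0.14, adjusted p = 0.023) and Rgs2 as more negative (-0.86 ± 0.11, adjusted p = 0.00011), against 2.64% and 4.2% (6.84% in all). The smaller Rgs16 differences lay near the threshold. For liver against spleen the value stayed between 0.46 and 0.55 while the call was lost without spleen PSGL1lo replicate 1 (0.55, adjusted p = 0.067) or replicate 2 (0.50, adjusted p = 0.11), spleen PSGL1hi replicate 1 (0.46, adjusted p = 0.074), or liver PSGL1hi replicate 1 (0.52, adjusted p = 0.082) or replicate 2 (0.54, adjusted p = 0.084). For lung against liver the call was lost at a nearly equal value without liver PSGL1hi replicate 1 (0.52, adjusted p = 0.074) or replicate 2 (0.51, adjusted p = 0.083). It was lost at a smaller value without lung PSGL1lo replicate 1 (0.33, adjusted p = 0.19) or lung PSGL1hi replicate 2 (0.40, adjusted p = 0.15). Rgs3 and Rgs19 differed in none of the 3 interactions by edgeR's test, nor at an unadjusted p under 0.05, nor by DESeq2 or limma voom. Rgs2 gave -0.28 ± 0.11 for lung against liver (adjusted p = 0.16), and a more negative -0.37 without liver PSGL1lo replicate 1. Rgs1 gave -0.25 ± 0.13 for liver against spleen (adjusted p = 0.28), and a more negative -0.40 without liver PSGL1lo replicate 2. Rgs10 gave -0.36 ± 0.11 for lung against liver with an adjusted p of 0.068, and it passed by DESeq2 (adjusted p = 0.041) and without liver PSGL1lo replicate 2 (-0.44, adjusted p = 0.014).

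The next comparison set lung against liver within each fraction, both from 1 library series. Of the 8 genes, 6 were higher and 1 was lower in lung PSGL1lo cells, against 19.6% and 20.4% of all genes (39.9% in all). In PSGL1hi cells 5 were higher and 1 was lower, against 20.1% and 18.3% (38.4% in all). Ramp3 was 15.4 times higher in lung than in liver PSGL1hi cells (log2 change 3.94 ± 0.16, adjusted p = 2.7e-14) and 4.94 times higher in PSGL1lo cells (2.30 ± 0.14, adjusted p = 3.4e-11). Rgs2 was 5.21 times higher in PSGL1hi (2.38 ± 0.08, adjusted p = 3.1e-15) and 4.28 times in PSGL1lo cells (2.10 ± 0.08, adjusted p = 3.1e-14).

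Rgs1 was 3.39 times higher in lung than in liver PSGL1hi cells (1.76 ± 0.10, adjusted p = 4.2e-12) and 1.97 times in PSGL1lo cells (0.98 ± 0.10, adjusted p = 5.4e-08). Rgs16 had the larger tissue difference in PSGL1lo cells, 1.26 ± 0.09 against 0.75 ± 0.09 in PSGL1hi cells (adjusted p = 9.1e-10 and 1.8e-06). Rgs10 was higher by 0.71 ± 0.08 and 1.07 ± 0.08 (adjusted p = 3.8e-07 and 8.5e-10). Ramp1 was higher in lung than in liver PSGL1lo cells (0.82 ± 0.12, adjusted p = 1.1e-05), whereas its PSGL1hi levels were 10.2 ± 1.9 and 11.9 ± 0.44 CPM (-0.23 ± 0.14, adjusted p = 0.20), a difference that passed without lung PSGL1hi replicate 1 (-0.44, adjusted p = 0.046). Rgs3 alone was lower in the lung, by -0.73 ± 0.07 in PSGL1lo and -0.63 ± 0.07 in PSGL1hi cells (adjusted p = 1.7e-08 and 1.6e-07). Rgs19 did not pass in either fraction (0.11 ± 0.09 and 0.05 ± 0.09).

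The lung rises of these genes ran beside those of other lists. Of 22 immediate early and stress genes, 14 were higher and 6 lower in lung than in liver PSGL1lo cells, against 19.6% and 20.4% of all genes. In PSGL1hi cells 18 were higher and 2 lower, against 20.1% and 18.3% of all genes. Hspa1a, an inducible heat shock chaperone gene whose reads can also match its near copy Hspa1b, was 1130 ± 83 CPM in lung against 3.62 ± 0.11 CPM in liver PSGL1lo cells. Atf3, a stress-induced transcription factor gene, was 49.9 ± 7.4 against 1.75 ± 0.81 CPM. Of 18 myeloid markers, 13 were higher and 3 lower in the lung in each fraction, and of 12 endothelial and stromal markers 10 were tested and 6 were higher and 1 lower in each, beside the same shares. The part of stress signs and of other cells in the lung levels was not tested.

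**Figure D3:**
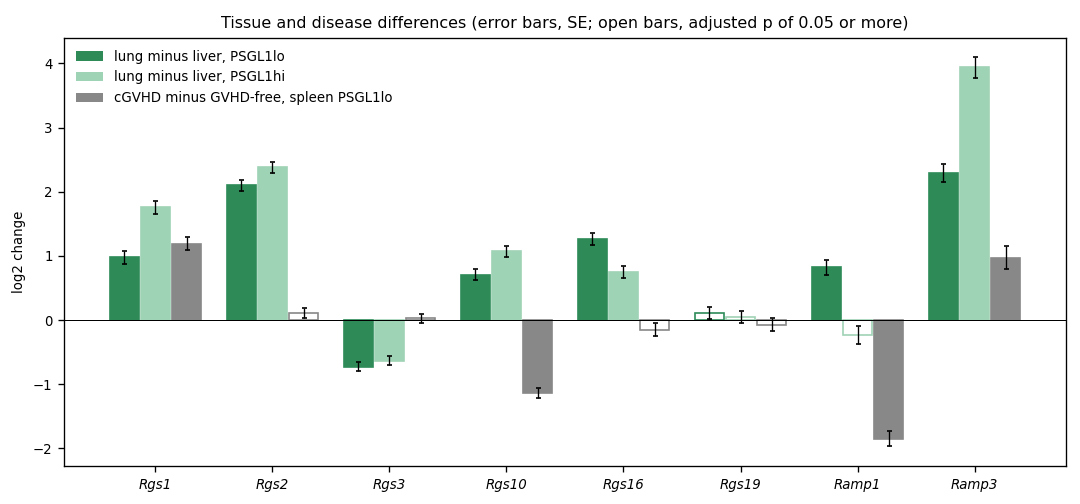
Log2 change of each gene between lung and liver cells in both fractions and between cGVHD and GVHD-free spleen PSGL1lo cells; bars above 0 are higher in lung or in cGVHD, error bars are SE, and open bars did not pass an adjusted p of 0.05. Ramp3 has the tallest bar (3.94, lung against liver in PSGL1hi cells), and Ramp1 the deepest (-1.85, cGVHD against GVHD-free).

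Spleen PSGL1lo cells of cGVHD and GVHD-free recipients were compared within the spleen library series. Rgs1 and Ramp3 were higher and Rgs10 and Ramp1 lower in cGVHD, 2 of 8 genes each way, against 14.7% higher and 12.8% lower (27.5% called in all) of all genes. Ramp1 fell to 21 ± 2.4 CPM from 75.6 ± 0.32 CPM, a 3.61-fold lower level (-1.85 ± 0.12, adjusted p = 1.8e-10). Rgs10 was 2.2-fold lower, 75.1 ± 7.3 against 165 ± 1 CPM (-1.14 ± 0.08, adjusted p = 6.3e-10). Rgs1 was 2.28 times higher in cGVHD (1.19 ± 0.10, adjusted p = 3.8e-09), and Ramp3 1.97 times, 12.2 ± 1.5 against 6.16 ± 0.51 CPM (0.97 ± 0.18, adjusted p = 0.00031). For all 4 genes the libraries of both groups did not overlap, which held for 64.9% of all genes tested. Rgs2, Rgs3, Rgs16 and Rgs19 had log2 changes of 0.11, 0.03, -0.15 and -0.07 with adjusted p-values of 0.32 to 0.83. Markers of B and plasma cells fell in the same comparison, with all 8 that were tested of 11 lower (12.8% of all genes), and a summed level of 76.3 to 76.7 CPM in GVHD-free and 19.5 to 21.1 CPM in cGVHD libraries; their part was not tested.

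Liver and lung were also set against spleen, where the tissue and the series of libraries change together and cannot be told apart. In PSGL1lo cells, Rgs3, Rgs16 and Rgs19 were higher and Rgs1 and Rgs2 lower in liver than in spleen, against 28.7% higher and 29% lower (57.7% in all) of all genes. In lung PSGL1lo cells 6 genes were higher than in spleen, Rgs2, Rgs10, Rgs16, Rgs19, Ramp1 and Ramp3, and Rgs3 was lower, against 29.6% and 30.4% (60% in all). Rgs16 was 5.41 times higher there (2.44 ± 0.10, adjusted p = 1.4e-14), and Rgs1 was 801 ± 35 and 751 ± 35 CPM (0.09 ± 0.10, adjusted p = 0.41). In PSGL1hi cells, Rgs3, Rgs10, Rgs16 and Rgs19 were higher and Rgs1, Rgs2 and Ramp3 lower in liver than in spleen, against 28.5% and 29.4% (57.9% in all). The Rgs2 call (-0.21 ± 0.08) was lost at smaller values without spleen PSGL1hi replicate 2 (-0.12, adjusted p = 0.26) or liver PSGL1hi replicate 2 (-0.15, adjusted p = 0.24). The Ramp3 call (-0.55 ± 0.18) was lost without spleen PSGL1hi replicate 1 (-0.47, adjusted p = 0.092) or liver PSGL1hi replicate 2 (-0.34, adjusted p = 0.21), and at an equal size with limma voom (-0.56, adjusted p = 0.065). In lung PSGL1hi cells, Rgs1, Rgs2, Rgs10, Rgs16, Rgs19 and Ramp3 were higher than in spleen, against 30.7% higher and 31% lower (61.8% called in all), and Ramp3 was 10.5 times higher (3.40 ± 0.15, adjusted p = 3.6e-14). Rgs3 was 160 ± 7.9 and 178 ± 0.92 CPM there (-0.15 ± 0.07, adjusted p = 0.058), and it passed as lower by DESeq2 (0.037) and limma voom (0.046).

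RAMP proteins need a receptor to escort, and Calcrl, described for that reason, was measured in every library. It was 39.2 and 39.2 CPM in GVHD-free spleen, 95.9 and 99.9 in PSGL1lo cells of cGVHD spleen, 96.7 and 109 in spleen PSGL1hi, 27.1 and 29.1 in liver PSGL1lo, 28.1 and 25.4 in liver PSGL1hi, 38.4 and 32.8 in lung PSGL1lo and 38.8 and 36.6 CPM in lung PSGL1hi. All cGVHD spleen libraries lay above all others. Calcrl was higher in cGVHD than in GVHD-free spleen PSGL1lo cells (1.32 ± 0.10, adjusted p = 7.1e-10), the comparison in which Ramp1 fell and Ramp3 rose. It did not pass between the fractions of any tissue (-0.07, 0.07 and -0.08 in spleen, liver and lung, adjusted p = 0.61, 0.65 and 0.56), and it was modestly higher in lung than in liver (0.34 ± 0.10 in PSGL1lo and 0.50 ± 0.10 in PSGL1hi cells). Ramp2, the remaining family member, did not pass the filter; 9 of its library values were 0 and the highest was 0.357 CPM. Calcr, the calcitonin receptor gene, reached at most 0.636 CPM, and Adm, the adrenomedullin gene, at most 0.806 CPM.

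Among 16 genes of RAMP partners and ligands, 7 were tested. In cGVHD against GVHD-free spleen 3 were higher, against 14.7% of all genes: Calcrl, Vipr2 (12.2 ± 2.4 against 1.79 ± 0.2 CPM), a receptor of the neuropeptide VIP, and Calca, which encodes calcitonin and CGRP. Calca held 1.79 and 3.40 CPM in the cGVHD libraries and 0.0609 and 0 CPM in the GVHD-free ones, which lie under the limit that a count of 0 allows, so no fold is given. Vipr2 was higher in PSGL1lo cells of spleen, liver and lung (1.68, 1.95 and 2.42 on the log2 scale, adjusted p = 3.3e-06, 8.7e-07 and 1.5e-08), as Ramp1 was. Calca was lower in PSGL1lo than in PSGL1hi cells of spleen (2.59 ± 1.1 against 6.78 ± 0.25 CPM, adjusted p = 0.0034) and lung (1.65 ± 0.061 against 3.94 ± 0.36 CPM, adjusted p = 0.0077). In the lung Vipr1, the other VIP receptor gene, was lower in PSGL1lo cells too (-0.71, adjusted p = 0.00015).

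**Figure D4:**
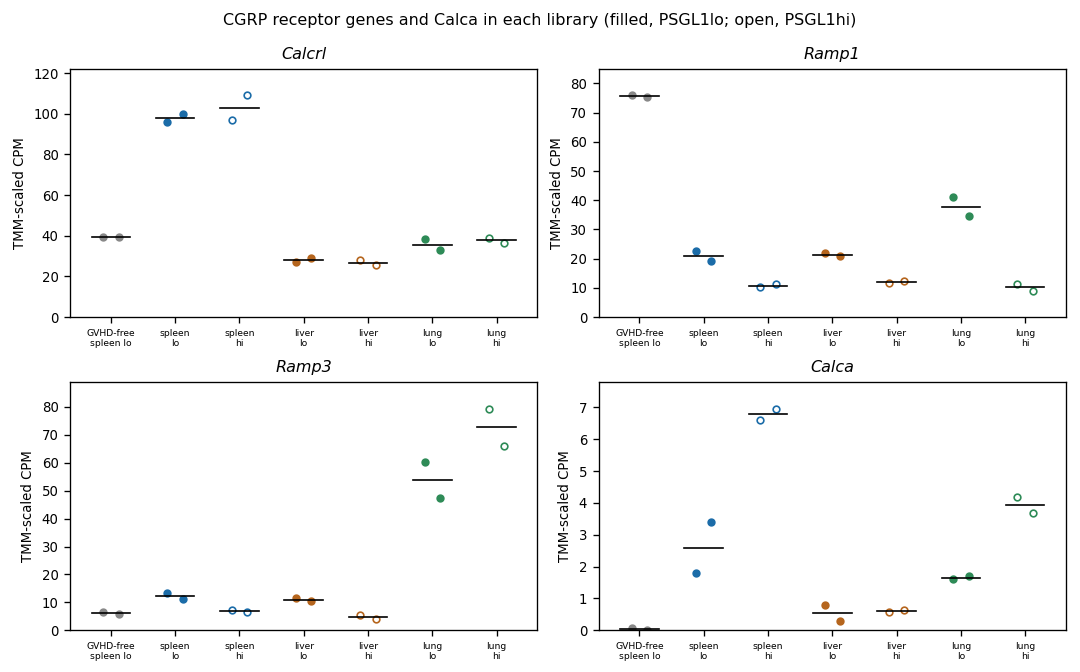
Levels (TMM-scaled CPM, linear axes from 0) of Calcrl, Ramp1, Ramp3 and Calca in each library, points filled for PSGL1lo and open for PSGL1hi, with lines at the means of 2. Calcrl is highest in the cGVHD spleen libraries (95.9 to 109 CPM), where Ramp1 and Ramp3 are both under 25 CPM on their own axes.

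Of 15 other RGS genes on the list, 6 passed the filter on low counts. In cGVHD against GVHD-free spleen, Rgs8 (1.67 ± 0.68 against 4.1 ± 0.84 CPM) and Rgs9 (2.21 ± 0.45 against 5.06 ± 0.77 CPM) were lower, 2 of the 6, against 12.8% of all genes lower and 27.5% called. In the lung both were higher in PSGL1lo than in PSGL1hi cells (1.18 and 0.86 on the log2 scale, adjusted p = 0.007 and 0.0017), and in the liver Rgs9 was higher (0.65, adjusted p = 0.019). Between lung and liver, Rgs12, like Rgs3, was lower in the lung in both fractions (-0.69 and -0.58, adjusted p = 0.00038 and 0.0026).

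The Gi-coupled chemoattractant receptors, whose signals RGS proteins end, were all 19 tested. In the lung 11 were lower and 3 higher in PSGL1lo cells, against 20.1% and 12.9% of all genes, with a median log2 change of -1.08. Ccr2, a receptor of inflammatory chemokines, was 103 ± 6.1 against 527 ± 3.5 CPM (adjusted p = 2.3e-13), and Cxcr5, which guides cells to B cell follicles, was 82.6 ± 5.2 against 17.8 ± 2.7 CPM (adjusted p = 6.8e-13). Rgs1 and Rgs2 were lower and Rgs16 higher in the same cells. In spleen and in liver, 10 of the 19 were lower and 6 higher in PSGL1lo cells, against 16.7% and 15.8% of all genes in spleen and 12.3% and 8.5% in liver, with medians of -0.55 and -0.38. Between lung and liver, 10 were higher and 7 lower in lung PSGL1lo cells, against 19.6% and 20.4% of all genes. In lung PSGL1hi cells 11 were higher and 4 lower than in liver, against 20.1% and 18.3% of all genes. Cxcr4, the receptor of CXCL12, was 553 ± 62 against 124 ± 3.2 CPM in PSGL1lo cells and 847 ± 2 against 90.7 ± 2 CPM in PSGL1hi cells. In cGVHD against GVHD-free spleen 11 were higher and 5 lower, against 14.7% and 12.8% of all genes, among them Cxcr6 higher (529 ± 14 against 86.9 ± 2 CPM).

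Cyclic AMP is made after Gs signals and broken down by phosphodiesterases. Of 17 phosphodiesterase and kinase A pathway genes, all tested, 9 were lower and 8 did not pass in lung PSGL1lo against PSGL1hi cells, where 20.1% of all genes were lower and 33% called. Pde4b fell to 153 ± 11 from 381 ± 4.2 CPM (-1.32, adjusted p = 2.3e-10), and Crem, a transcription factor gene that cyclic AMP induces, to 100 ± 8.4 from 157 ± 15 CPM (-0.65, adjusted p = 1.1e-05). Their direction was that of Rgs1, Rgs2 and Ramp3. Crem was also higher in lung than in liver, 100 ± 8.4 against 21 ± 1.2 CPM in PSGL1lo cells and 157 ± 15 against 20.3 ± 0.14 CPM in PSGL1hi cells. In spleen PSGL1lo cells 5 of the 17 were higher and 2 lower than in PSGL1hi (15.8% and 16.7% of all genes). In the liver 1 was lower (12.3% of all genes), Prkar2a (-0.45, adjusted p = 0.0009). In cGVHD against GVHD-free spleen 6 were higher and 1 lower, against 14.7% and 12.8% of all genes, with Pde3b at 179 ± 11 against 67.3 ± 3.5 CPM.

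Among 13 genes of G alpha subunits, 12 were tested. Gna15, a Gq-family subunit of blood cells, was lower in PSGL1lo cells of spleen, liver and lung (-0.67, -0.44 and -0.89, adjusted p = 6.1e-06, 0.00091 and 6.1e-08) and higher in cGVHD than in GVHD-free spleen (75.4 ± 5.8 against 14.4 ± 0.78 CPM). Gna13 was higher in lung than in liver, 663 ± 55 against 324 ± 27 CPM in PSGL1lo cells and 1080 ± 32 against 335 ± 1.1 CPM in PSGL1hi cells. Gnaq was higher in lung PSGL1lo than in PSGL1hi cells (0.74, adjusted p = 7.7e-06). In all, 3 subunit genes were higher and 5 lower in lung PSGL1lo cells, against 12.9% and 20.1% of all genes.

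The genes varied with one another over the 14 libraries, which share tissue, library series and depth, so the correlations only describe these libraries. On the log2(CPM + 1) scale, Rgs2 followed Ramp3 (Pearson r = 0.87) and Rgs1 (0.83) and ran against Rgs3 (-0.83). Rgs16 followed Rgs19 (0.83), Ramp3 also followed Rgs1 (0.78) and Rgs16 (0.77), and Ramp1 followed Rgs10 (0.67). Rgs1 ran against Rgs3 (-0.69). Ramp1 and Ramp3 had r = -0.08. Among 8758 genes with a mean of at least 10 CPM, the one most like Rgs1 over the 14 libraries was Tsc22d3 (0.983), like Rgs2 Nfil3 (0.978), like Rgs3 Aifm1 (0.961) and like Rgs10 Ldlrad4 (0.966). For Rgs16 it was Anp32a (0.969), for Rgs19 Arpc2 (0.981), for Ramp1 Tbc1d4 (0.985) and for Ramp3 Prpf38b (0.964). Next like Rgs10 were Cux1 (0.956) and Bcl6 (0.95), the regulator of follicular helper T cells, and next like Ramp3 were the heat shock genes Dnajb1 (0.962) and Hspa1a (0.96).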

How the data were processed

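Gene expression was measured by mRNA sequencing (Qiagen RNeasy extraction and Kapa mRNA HyperPrep libraries, per the labels' protocols). The authors deposited whole-number read counts per gene, made with TopHat2 2.0.8 and HTSeq on mm9, per the submitters' processing notes. Annotation, strand setting and read filters were not given in the sources used here.

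The counts of genes kept by filterByExpr (13780 of 25017) went into edgeR 4.0.16 under R 4.3.3, with TMM scaling and a quasi-likelihood model that gave each group a mean and used all 14 libraries, leaving 7 residual degrees of freedom. Its 2-sided F test was adjusted by Benjamini-Hochberg over all genes tested, separately for each of 13 comparisons and, for the order of levels, each of 21 pairs of groups; an adjusted p under 0.05 was called. Levels are mean ± SD of 2 libraries, changes log2 ± SE from the F statistic. With 2 libraries a group, an exact permutation test of a single gene cannot reach that threshold, so each call borrows the spread of all groups and genes. The steps were tested on simulated data. Replicates differed by more than sampling noise in every group (chi-square per degree of freedom 2.97 to 18.6).

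The 8 genes and all gene lists were chosen with earlier results of these data known. By rule, the text names all 8 genes, up to 4 called genes of a list with the largest change in a comparison, the top 2 markers of a cell type by level, Selplg and Cd4, and the genes whose pattern is most like each of the 8. Calcrl, Calcr, Adm and Ramp2 were added for their role. Alternatives were other scalings (DESeq2 size factors, upper quartile), no filter, DESeq2 1.42.0, limma 3.58.1 voom, the groups of the comparison alone, a replicate block and leaving out each library.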

Additional observations from a re-analysis of the deposited data

Results flagged for a closer look

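For these genes the difference between PSGL1lo and PSGL1hi cells was not the same in 2 tissues, by the test of the difference itself (edgeR's quasi-likelihood F test of the interaction, adjusted over all genes). Values are the PSGL1lo effect in the first tissue minus that in the second, on the log2 scale. Where the second tissue is spleen, the tissue and the series of libraries cannot be told apart.

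For liver minus spleen the values were -0.86 for Rgs2 and 0.53 for Rgs16 (adjusted p = 0.00011 and 0.023). For lung minus spleen they were -1.04 for Rgs1, -1.14 for Rgs2, -0.61 for Rgs10, 1.04 for Rgs16, 0.93 for Ramp1 and -1.25 for Ramp3 (adjusted p = 1.4e-05, 4.7e-07, 0.00086, 1.5e-05, 0.0014 and 3e-04). For lung minus liver they were -0.78 for Rgs1, 0.51 for Rgs16, 1.05 for Ramp1 and -1.64 for Ramp3 (adjusted p = 0.00072, 0.021, 7e-04 and 3.2e-05).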

How the results depend on the processing

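For the 8 genes, 104 results (8 genes in 13 comparisons) were recomputed under each alternative that touched them, which gave 1240 values. Of these, 1204 kept their side of the threshold, 20 lost the call and 16 gained one. None changed direction where either value was called, and direction was not compared where neither was. In a fit that leaves out a library, the lone library of that group is assumed to vary like the other groups. Upper quartile scaling moved the median of all genes by the most in lung against spleen PSGL1hi cells, to -0.12 from -0.02. The cause of the changes below was not tested.

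The count of the 8 genes called changed as follows. For liver PSGL1lo against PSGL1hi, 1 was lower and 2 were without a filter on low counts. For lung against spleen PSGL1hi, 0 were lower (1 at an unadjusted p under 0.05), and 1 was with upper quartile scaling, DESeq2 and limma voom. Leaving out single libraries gave these ranges: 0 to 1 lower for spleen PSGL1lo against PSGL1hi, 1 to 2 lower for liver PSGL1lo against PSGL1hi, 0 to 1 higher and 1 to 2 lower for the liver minus spleen effect, 1 to 2 higher for the lung minus liver effect, 1 to 2 lower for lung against liver PSGL1hi, 1 to 3 lower for liver against spleen PSGL1hi and 0 to 1 lower for lung against spleen PSGL1hi.

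Of all genes, 943 were called for the liver minus spleen effect and 599 with only the groups of that contrast. Leaving out single libraries gave 331 (without liver PSGL1hi replicate 2) to 2497 (without liver PSGL1lo replicate 2) for that effect, 475 to 1320 for lung minus liver against 823 with all libraries (the same 2 libraries), 1517 to 2047 for lung minus spleen against 2282, and 1552 (without liver PSGL1hi replicate 1) to 3696 for liver PSGL1lo against PSGL1hi against 2866. The shares of all genes called that stand beside the 8 genes in these comparisons move with them.

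Replicate numbers in the labels were checked as a pairing: over 21 pairs of groups, the correlation of same-numbered deviations ran from -0.28 to 0.24, over 0.1 in 4 and under -0.1 in 5. Between the fractions of 1 tissue it was 0.24 in spleen, 0.03 in liver and 0.24 in lung. Liver and lung library names also share a letter within each replicate number, with no meaning given, so the labels do not state a pairing and none was used in the fits reported. A replicate block changed no call of the 8 genes and gave 3700 genes called for cGVHD against GVHD-free spleen (3791 without it), 4416, 2800 and 4472 for PSGL1lo against PSGL1hi in spleen, liver and lung, and 871, 2231 and 800 for the differences of that effect.

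With 2 libraries a group and an SE of 0.07 to 0.10 (log2) for most RGS genes, the depth and number of libraries limit what can be said of small changes such as those of Rgs3 and Rgs19 between fractions.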
